A study of Mus musculus with 3 samples.

Results

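Long intergenic noncoding RNAs (lincRNAs) are transcripts annotated as coding for no known protein and lying apart from protein-coding genes. On the autosomes 215 genes annotated in this way were expressed in granulocytic myeloid-derived suppressor cells (G-MDSCs) of mouse blood. The annotation is not certain for each, since RefSeq called 7 of them protein-coding and 27 had a gap of 0 to a protein-coding gene. The genes were selected on measured level, in the rule that also defined the set: a gene was taken when GENCODE M21 gave it the biotype lincRNA, it lay on an autosome and it had at least 2 FPKM in at least 1 library. FPKM is a fragment number scaled to exon length and sequencing depth, so levels can be set side by side between genes. These 215 genes were 12.8% of the 1684 autosomal lincRNA rows, of which 1325 were above 0 in some library, out of 26655 gene rows in all. By the same level rule 7647 of 16100 autosomal protein-coding genes (47.5%) passed. Because the rule read the levels in all 3 libraries, a gene that passed only in the library where it was high had to differ, and counts over the 215 genes are descriptions.

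The 3 libraries were made from total RNA of CD11b+Gr1+ cells of C57BL/6J mouse blood, sorted magnetically, with G-MDSCs separated through Ly6G, and there was 1 library for each condition: normal mice, mice that had carried subcutaneous B16F10 tumors for 2 weeks (2Ws) and mice that had carried them for 3 weeks (3Ws). B16F10 is a transplantable melanoma line of C57BL/6 mice. Mice were 8 to 10 weeks old, and tumors were implanted in female mice. Some labels give the tumor times in months, and the weeks of the sample descriptions were used here. The normal sample is titled N1 while the column of values deposited with it is named N2, and it was taken as that sample's. How many mice stand behind a library is not given in the sources used here. With 1 library a condition no difference has a replicate check and no test was run, so a 2-fold rule on FPKM plus 1 is used below, and intervals are exact at 95% and cover counting error only.

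lincRNAs act in several ways. Some build nuclear bodies, some carry microRNAs or small nucleolar RNAs within their transcripts, and the transcription of others affects a neighboring gene. Most have no known function, and their levels are often restricted to 1 lineage or state. G-MDSCs resemble neutrophils, are short-lived, and accumulate in tumor-bearing hosts, where they restrain T cells.

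The 3 libraries had recovered totals of 17325746, 16549245 and 17075751 fragments in the normal, 2Ws and 3Ws libraries. Neutrophil markers were high in all of them, with summed levels of 44029, 49370 and 68452 FPKM in the normal, 2Ws and 3Ws libraries. Other blood cells were also present. Summed B cell markers were 551, 708 and 128 FPKM, monocyte and macrophage markers 1227, 956 and 576 FPKM, platelet markers 120, 146 and 26.2 FPKM, eosinophil markers 50.1, 67.7 and 32.4 FPKM, dendritic cell markers 85.4, 72.5 and 39.9 FPKM and erythroid markers 20.2, 8.57 and 97.1 FPKM in that order of libraries. T cell (5.04, 9.56 and 4.46 FPKM), NK cell (11.1, 9.30 and 13.4 FPKM), basophil and mast cell (8.29, 3.89 and 1.24 FPKM) and melanoma markers (5.23, 5.49 and 5.22 FPKM) were low. The libraries also differed in sex-linked genes: Xist was at 0.00966, 24.7 and 0 FPKM and the Y-linked Ddx3y at 19.9, 0 and 23.1 FPKM in the normal, 2Ws and 3Ws libraries, so only the 2Ws library had the pattern of the female mice that the methods name. All 215 lincRNAs are autosomal, while a few genes of the lists set beside them below lie on the X chromosome. In any comparison with the 2Ws library, and for levels highest or lowest at 2Ws, sex and tumor time cannot be told apart. This holds for autosomal genes and cell markers too. In bulk RNA, fewer cells of a type and less RNA per cell cannot be told apart.

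Some of the 215 genes carry microRNAs, whose sequences are shown because the host RNA is what these libraries read while the small product is what acts. The span of 6 of them held a microRNA on the same strand with a mature sequence in RefSeq (GRCm38.p6), 24 mature sequences in all. They are printed 5′ to 3′ with the seed, bases 2 to 8, in capitals. Mir142hg, on chromosome 11, holds the blood cell microRNA miR-142, Mir17hg, on chromosome 14, the miR-17 to miR-92a cluster, which promotes proliferation and survival, 6720427I07Rik, on chromosome 13, a let-7 cluster, and E130102H24Rik, on chromosome 4, miR-101a.
mmu-miR-142a-5p: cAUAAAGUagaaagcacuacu
mmu-miR-142a-3p: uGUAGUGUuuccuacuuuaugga
mmu-miR-17-5p: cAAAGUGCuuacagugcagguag
mmu-miR-20a-5p: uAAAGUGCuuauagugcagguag
mmu-miR-18a-5p: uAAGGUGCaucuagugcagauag
mmu-miR-19a-3p: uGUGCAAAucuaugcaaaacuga
mmu-miR-19b-3p: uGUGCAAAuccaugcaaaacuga
mmu-miR-92a-3p: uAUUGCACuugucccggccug
mmu-let-7a-5p: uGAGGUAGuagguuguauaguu
mmu-let-7d-5p: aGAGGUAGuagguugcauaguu
mmu-let-7f-5p: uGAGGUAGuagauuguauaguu
mmu-miR-101a-3p: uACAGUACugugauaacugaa

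The seed GAGGUAG was shared by 3 of these (let-7a, let-7d and let-7f), AAAGUGC by miR-17-5p and miR-20a-5p, and GUGCAAA by miR-19a-3p and miR-19b-3p. The hosts differed widely in level. Mir142hg, the second most abundant lincRNA by mean FPKM, was at 146, 190 and 153 FPKM in the normal, 2Ws and 3Ws libraries, from 682, 848 and 702 reads. Mir17hg had 2.77, 2.94 and 1.34 FPKM, and its log2 ratio of FPKM plus 1 was −0.69 at 3Ws against normal, short of the 2-fold rule. E130102H24Rik had 18.99, 16.5 and 13.7 FPKM and 6720427I07Rik 2.18, 1.84 and 1.60 FPKM in the same order. 2900076A07Rik, host of miR-1839, had 2.26, 2.52 and 1.38 FPKM, and Gm19710, which holds small RNA genes on the opposite strand only, 2.02, 2.48 and 2.23 FPKM. None of these hosts passed the 2-fold rule in any of the 3 comparisons. The libraries do not measure the mature microRNAs.

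The abundance of the lincRNAs was uneven. Their highest level over the 3 libraries was 2 to 5 FPKM for 102 genes, 5 to 20 for 74, 20 to 100 for 31 and at least 100 for 8. The 10 highest genes of a library held 47.0%, 46.2% and 48.0% of the summed lincRNA FPKM in the normal, 2Ws and 3Ws libraries, and all 215 held 0.928%, 0.998% and 0.986% of the FPKM of all genes. Their median level was 4.04, 4.51 and 4.13 FPKM, against 8.88, 8.77 and 7.38 FPKM for the protein-coding genes that passed the same rule. At least 2 FPKM was reached in all 3 libraries by 155 genes, in 2 by 23 and in 1 by 37, namely 10 in the normal, 12 in the 2Ws and 15 in the 3Ws library alone. Just inside the threshold were Gm47231, Epb41l4aos and 2210414B05Rik at 2.01 FPKM each in their highest library, and just outside it 1300002E11Rik and Gm16211 at 1.98 and Gm48277 at 1.95 FPKM.

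The most abundant lincRNA was Gm26809 (chr6:18844220-18847360, GRCm38), at 439, 434 and 430 FPKM in the normal, 2Ws and 3Ws libraries, the most even of the abundant ones. Malat1, a nuclear RNA of splicing speckles, had 124, 125 and 165 FPKM, highest at 3Ws. Neat1, the scaffold of paraspeckles, had 38.8, 54.1 and 40.5 FPKM, highest at 2Ws. Both stayed within the 2-fold rule in every comparison. The protein genes of the bodies they belong to did not pass the 2-fold rule in any comparison. This held for 19 paraspeckle genes, 2 of them X-linked, and 21 nuclear speckle genes. Their median log2 ratios were −0.18 and −0.21 at 3Ws against normal. 4833407H14Rik (112, 125 and 115 FPKM) and Mirt1 (56.1, 72.6 and 69.0 FPKM) lie on opposite strands with overlapping exons on chromosome 19, so without strand information reads from the pair cannot be told apart. Gm15729 (100.04, 110.4 and 117 FPKM), Gm12840 (119, 106 and 97.2 FPKM), Prr33 (104, 99.3 and 77.6 FPKM), Gm38171 (63.2, 82.8 and 87.8 FPKM) and Gm39321 (67.5, 59.5 and 44.0 FPKM) were also among the 15 highest. Gm26532 had 98.0, 95.8 and 58.0 FPKM. Its exon touches the gene of Mir24-2 on the same strand. Of the 15 highest genes of each library, 11 were shared by all 3.

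**Figure D1:**
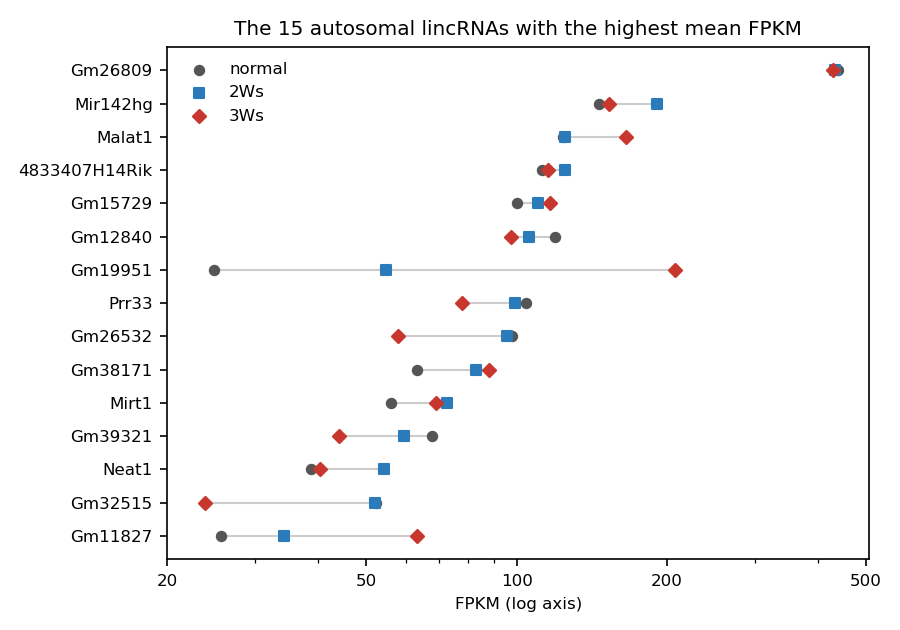
FPKM (log axis) of the 15 lincRNAs with the highest mean level, with 1 point for each library (normal, 2Ws and 3Ws). Gm26809 lies near 430 FPKM in all 3 libraries, while Gm19951 and Gm11827 are highest and Gm32515 lowest at 3Ws.

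Fewer lincRNAs passed the 2-fold rule at 2Ws against normal than at 3Ws against normal, as was also so over all autosomal genes. At 2Ws against normal 2 of the 215 (0.93%) passed the rule upward and 1 (0.465%) downward. Among the 8931 autosomal genes that passed the level rule, 1.04% were higher and 0.829% lower. At 3Ws against normal 18 (8.37%) were higher and 13 (6.05%) lower, where the share of all 8931 was 2.64% higher and 8.76% lower. At 3Ws against 2Ws 14 (6.51%) were higher and 11 (5.12%) lower, where all 8931 had 1.98% higher and 8.12% lower. The comparisons share libraries and are not independent of each other. Of the 18 higher at 3Ws than in normal mice, 7 had passed the level rule in 1 library only and 10 in all 3, and of the 13 lower 2 and 8. The interval of the read ratio left out 1 for all 18 higher genes and 12 of the 13 lower ones. Over the 3 comparisons 39 genes passed the 2-fold rule at least once. Within 1.5-fold in all 3 stayed 130 (60.5%), against 69.1% of the protein-coding genes. The lincRNAs had lower median levels and shorter exons than the protein-coding genes. The sets were not matched for reads, so their shares also differ in counting error and in the weight of the added 1.

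The median log2 ratio of FPKM plus 1 of the lincRNAs was 0.10 at 2Ws against normal, 0.00 at 3Ws against normal and −0.08 at 3Ws against 2Ws. For all 8931 genes it was −0.00, −0.22 and −0.19, and for protein-coding genes −0.01, −0.23 and −0.20. Taken over autosomal genes expressed (1 FPKM or more) on both sides, the median lay at −0.18 at 3Ws against normal, and at −0.16 at 3Ws against 2Ws. Relative to these shifts the lincRNA median was 0.19 at 3Ws against normal and 0.0823 at 3Ws against 2Ws, where its direction turned. At 3Ws against normal 8 lincRNAs in place of 13 then passed the rule downward and 25 in place of 18 upward. At 3Ws against 2Ws 7 in place of 11 passed downward and 18 in place of 14 upward.

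**Figure D2:**
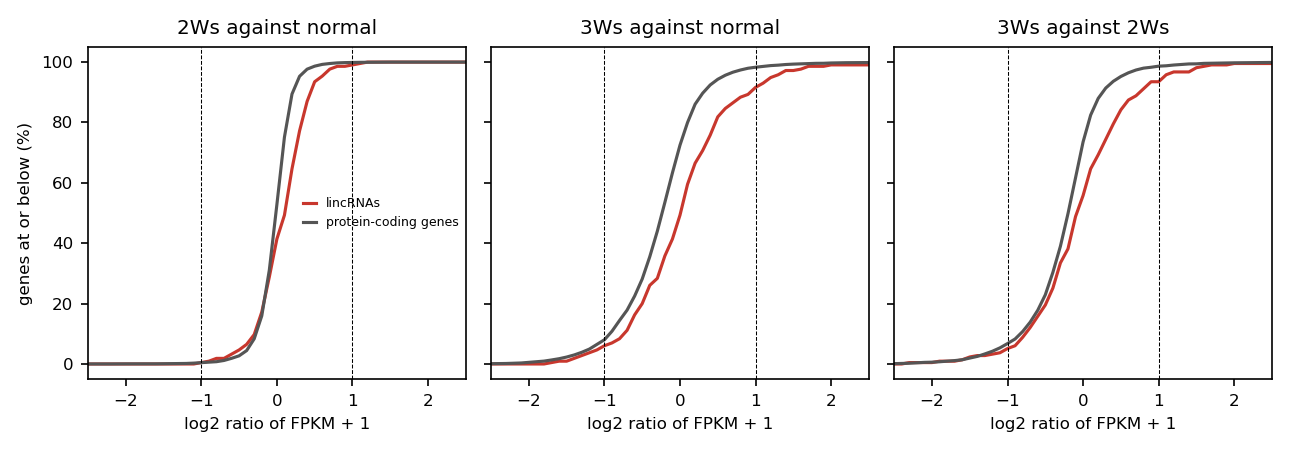
Cumulative share of genes (%) against the log2 ratio of FPKM plus 1 in 3 comparisons, for the 215 lincRNAs and for the 7647 protein-coding genes with the same level rule, with dashed lines at 2-fold. At 3Ws the lincRNA curve lies to the right of the protein-coding curve, with medians of 0.00 and −0.23 against normal.

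Gm19951 had the highest log2 ratio of FPKM plus 1 at 3Ws against normal, 3.01. This gene of 2 exon blocks (chr12:99643093-99647221, plus strand, GRCm38) had 24.8, 54.7 and 207 FPKM in the normal, 2Ws and 3Ws libraries, from 570, 1203 and 4698 reads. Its FPKM was 8.36-fold higher at 3Ws than in normal mice (interval 7.66 to 9.14), and it was the only lincRNA past the 2-fold rule upward in all 3 comparisons. Its nearest protein-coding gene, Efcab11, lies 45824 bases away and had 0.207, 0.114 and 0.165 FPKM. No role is known for Gm19951 that could be stated here with certainty.

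Gm29264 (chr5:149234816-149247682, minus strand) came next, at 8.08, 9.99 and 62.9 FPKM from 177, 209 and 1358 reads, 7.78-fold higher at 3Ws than in normal mice (interval 6.65 to 9.16). Its level at 2Ws was near that in normal mice. It lies 17085 bases from Alox5ap, which encodes the protein that presents arachidonic acid to 5-lipoxygenase in leukotriene synthesis and had 116, 122 and 191 FPKM. Its exons overlap 2310047D07Rik on the other strand, a lincRNA with 1.47, 1.69 and 3.98 FPKM that was also at least 2-fold higher at 3Ws. The reads of this pair cannot be told apart where they overlap.

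Both of the lincRNAs with 0 reads in normal mice were higher at 3Ws. Gm42800 had 0, 5 and 35 reads (0, 0.412 and 2.80 FPKM), at 3Ws 11.8-fold above a floor of 3 reads set for the normal library. This ratio leaves out counting error in the 35 reads and is not a lower bound. Gm42800 lies 175544 bases from Kit, the receptor for stem cell factor on progenitors and mast cells, which had 0.725, 0.841 and 7.08 FPKM. Gm16079 had 0, 1 and 21 reads (0, 0.104 and 2.13 FPKM), 7.10-fold above the same floor, with the same limit. These genes rest on few reads, and both passed the level rule in the 3Ws library alone.

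The other lincRNAs higher at 3Ws had smaller differences. Gm11827, near the p53-inducible Trp53inp1 (85.9, 113 and 145 FPKM), had 25.7, 34.2 and 63.3 FPKM and was 2.47-fold higher at 3Ws than in normal mice (interval 2.24 to 2.72). Gm36723 had 2.63, 5.22 and 8.50 FPKM and was 3.23-fold higher (2.84 to 3.68). Its nearest protein-coding gene, 206800 bases away, is Id2, an inhibitor of helix-loop-helix transcription factors, at 19.6, 19.01 and 59.5 FPKM. Gm12596 had 3.17, 5.21 and 11.7 FPKM and lies 37218 bases from the glucosylceramide synthase gene Ugcg, at 24.1, 25.4 and 44.0 FPKM. Gm33424 (10.1, 7.52 and 22.1 FPKM) lies 35129 bases from Nfil3, a transcription factor gene at 35.2, 29.6 and 59.1 FPKM. Each of these neighbors was highest at 3Ws. Gm37800 had 1.97, 1.52 and 6.77 FPKM and its neighbor Hlx 35.4, 28.7 and 36.7 FPKM, and 4933412O06Rik had 0.874, 1.40 and 4.33 FPKM while Gli3 was at or near 0 in all 3 libraries. Gm42047 had 8.41, 8.75 and 19.4 FPKM from 823, 818 and 1872 reads. The remaining higher genes, Gm2511, F730035M05Rik, Gm45805, Gm11261, Gm26535 and Gm29282, were between 2.40-fold and 4.45-fold higher. Nearest to Gm29282, Gm26535 and Gm45805 were Ier5, Marcks and Irf2bp2, with log2 ratios of −0.20, 0.12 and 0.17 at 3Ws against normal. Pygl, nearest to F730035M05Rik, was at 0.50, and 4931406B18Rik, nearest to Gm2511, at 0.87.

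Of the 18, 16 were ordered normal, 2Ws, 3Ws from low to high, the exceptions being Gm37800 and Gm33424, lowest at 2Ws. The 18 were picked for a 3Ws level above normal, which favors this order, and its share over all genes was not counted. Gm32633 was also lowest at 2Ws, at 5.53, 3.44 and 10.9 FPKM, and lies 62970 bases from Klf13, at 48.5, 46.4 and 105 FPKM. It passed the rule at 3Ws against 2Ws only, as did Gm33370 (4.37, 3.71 and 9.70 FPKM) and Gm47761 (2.06, 1.81 and 4.84 FPKM). All 4 measured erythroid markers were at least 2-fold higher at 3Ws than in normal mice, although their summed level was lowest at 2Ws. Of the 12 neutrophil markers 3 (Retnlg, Mmp8 and Lcn2) were at least 2-fold higher at 3Ws against normal. In that comparison 2, the granule genes Camp and Ltf, were at least 2-fold lower, with log2 ratios of −1.74 and −1.32. Of all 8931 genes, 2.64% were higher and 8.76% lower there. The part of these cells in the lincRNA values was not tested.

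**Figure D3:**
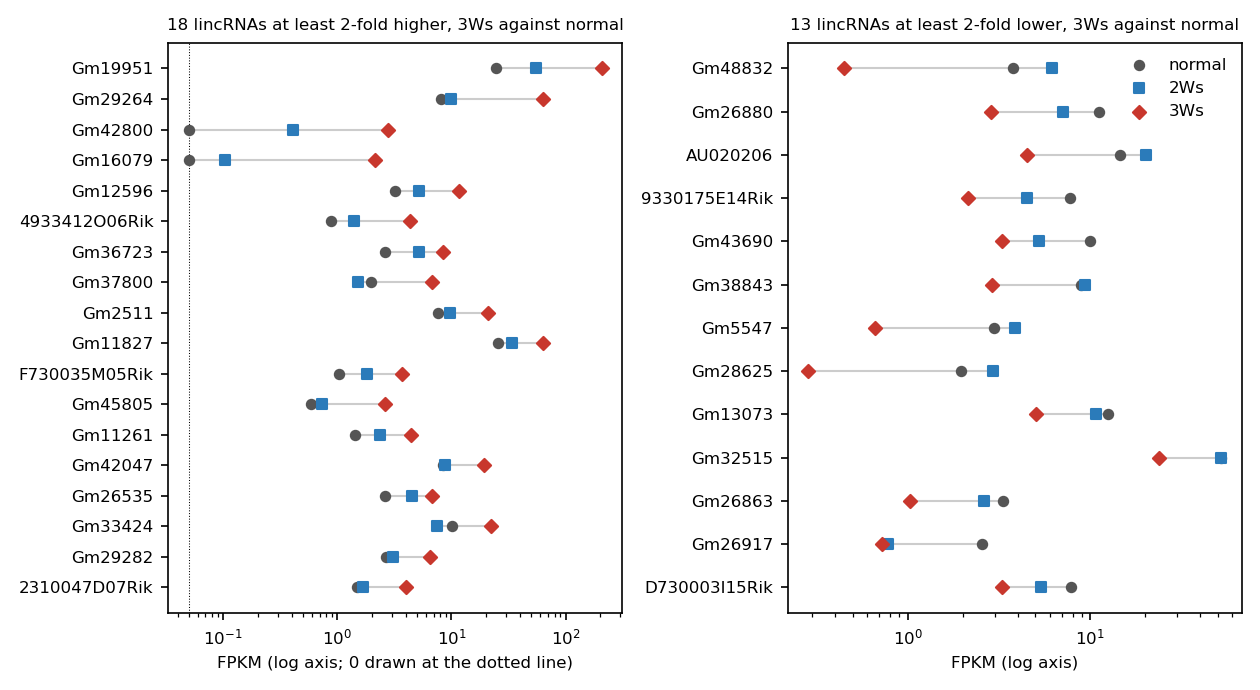
FPKM (log axis) in the normal, 2Ws and 3Ws libraries of the 18 lincRNAs past the 2-fold rule upward (left) and the 13 past it downward (right) at 3Ws against normal, with 1 point for each library and a level of 0 drawn at the dotted line. Gm19951 reaches 207 FPKM at 3Ws, and several of the lower genes, such as Gm48832 and AU020206, are highest at 2Ws.

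Among the lincRNAs lower at 3Ws, Gm48832 (chr9:85332352-85348065) had 3.78, 6.18 and 0.445 FPKM in the normal, 2Ws and 3Ws libraries, from 224, 350 and 26 reads, a level 8.49-fold lower at 3Ws (interval against normal mice 5.64 to 13.3). It lies 5004 bases from Tent5a, a noncanonical poly(A) polymerase gene at 32.4, 31.8 and 15.3 FPKM. AU020206 had 14.5, 20.1 and 4.52 FPKM from 800, 1062 and 246 reads and was 3.21-fold lower at 3Ws (2.77 to 3.71), while its neighbor Akap13, a kinase anchoring protein gene, had 55.8, 60.0 and 68.4 FPKM. Both genes were thus highest at 2Ws and lowest at 3Ws.

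That order was shared by 9 lincRNAs that passed the 2-fold rule downward at 3Ws against 2Ws: Gm48832, AU020206, Gm5547, Gm38843, Gm28625, Gm43388, AI504432, Gm15675 and 0610043K17Rik. They were picked for the fall from 2Ws to 3Ws, and the share of this order over all genes was not counted. Gm43388 had 1.70, 4.19 and 0.717 FPKM. AI504432 had 1.83, 2.68 and 0.578 FPKM and lies just downstream of Kcna3, a potassium channel gene of lymphocytes at 0.910, 1.24 and 0.0616 FPKM. Gm15675 had 3.39, 4.63 and 1.66 FPKM and lies 1836 bases downstream of Cd55, a complement regulator gene at 6.18, 9.26 and 3.32 FPKM. Gm38843 had 8.93, 9.35 and 2.90 FPKM and lies 29315 bases from the hexokinase gene Hk2, at 21.5, 16.5 and 10.6 FPKM. Gm5547 had 2.97, 3.87 and 0.661 FPKM, and Gm28625 rests on 7, 10 and 1 reads, so that the interval of its 6.90-fold lower level at 3Ws than in normal mice runs from 0.886-fold to 311-fold. Markers of other cells had the same order of libraries. It held for 15 of 15 B cell markers, among them Cd79a at 68.2, 94.2 and 13.3 FPKM, and 13 of these passed the rule downward at 3Ws against 2Ws. Of the 9 measured platelet markers, 7 passed the rule downward at 3Ws against 2Ws. The order held for 8 of the 9, but not for Pf4, the most abundant of them, at 71.4, 66.8 and 11.1 FPKM. It held for 4 of the 6 measured eosinophil markers, such as Ccr3 at 5.13, 15.9 and 2.22 FPKM and Il5ra at 2.52, 4.95 and 0.590 FPKM, and 5 of the 6 passed the rule downward at 3Ws against 2Ws, while Siglecf had 17.1, 19.7 and 23.0 FPKM. Of all 8931 genes, 8.12% passed the rule downward at 3Ws against 2Ws. The order held for 2 of 3 measured T cell markers, but for 3 of 18 monocyte and macrophage markers. It held for 1 of 5 measured dendritic cell markers and 0 of 12 neutrophil markers. When centred, Gm15675 and 0610043K17Rik no longer passed the 2-fold rule. The part of these cells in the lincRNA values was not tested.

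A second group, 8 of the 13 lincRNAs lower at 3Ws than in normal mice, was ordered 3Ws, 2Ws, normal from low to high. The 13 were picked for a 3Ws level below normal, which favors this order, and its share over all genes was not counted. Gm26880 had 11.2, 7.11 and 2.84 FPKM in the normal, 2Ws and 3Ws libraries and was 3.93-fold lower at 3Ws than in normal mice (interval 2.98 to 5.25). 9330175E14Rik had 7.77, 4.51 and 2.13 FPKM and was 3.65-fold lower (3.13 to 4.26). Its exons overlap those of Nlrc5, the transactivator of MHC class I genes, on the other strand, and Nlrc5 had 19.5, 11.0 and 9.91 FPKM, so the reads of the overlap cannot be assigned. D730003I15Rik had 7.87, 5.37 and 3.30 FPKM and lies 6415 bases from the stress response gene Atf3, at 49.5, 31.1 and 13.9 FPKM. Gm13073 had 12.5, 10.8 and 5.06 FPKM and lies 5747 bases from Slc25a33, a mitochondrial nucleotide carrier gene at 5.66, 4.93 and 1.86 FPKM. Gm32515 was the most abundant of the lower genes, at 52.3, 52.1 and 23.8 FPKM. Gm43690 (9.98, 5.23 and 3.30 FPKM) and Gm26863 (3.33, 2.61 and 1.03 FPKM) completed the group with Gm26917. At 3Ws against normal Klf10, nearest to Gm26863, had a log2 ratio of 0.075, and Ado, nearest to Gm32515, one of −0.75. When centred, D730003I15Rik, Gm13073, Gm32515, Gm26863 and Gm26917 no longer passed the 2-fold rule at 3Ws against normal, with log2 ratios of −0.86 to −0.97, nor did D730003I15Rik relative to Actb. The same order of libraries held for 12 of 18 monocyte and macrophage markers, 4 of the 5 measured dendritic cell markers and 5 of 5 basophil and mast cell markers. Of the monocyte and macrophage markers 14 passed the rule downward at 3Ws against normal. Of 29 measured interferon-stimulated genes 12 passed the rule downward at 2Ws and 14 at 3Ws against normal, beside 0.829% and 8.76% of the 8931 genes, and the others did not pass, with Trim30a at a log2 ratio of 0.34 at 3Ws. The part of these cells and genes in the lincRNA values was not tested.

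Gm26917 was the only lincRNA past the 2-fold rule downward at 2Ws against normal, with 2.57, 0.780 and 0.721 FPKM from 148, 43 and 41 reads. Its log2 ratio of −1.002 lay at the edge of the rule and did not pass when centred (−0.9999) or relative to Actb (−0.9587). It is 1 of 3 measured rows known for taking up reads of ribosomal RNA. The others had the same pattern: CT010467.1 was at 506, 81.1 and 52.6 FPKM and Lars2 at 34.1, 6.25 and 4.86 FPKM in the normal, 2Ws and 3Ws libraries. Ribosomal RNA left in the library and expression of the gene cannot be told apart for this row. At 2Ws the higher lincRNAs were Gm19951 and Gm44698. Gm44698 had 2.71, 6.61 and 3.20 FPKM from 18, 42 and 21 reads. Other lincRNAs stood at the ends of the 2Ws comparison without passing the rule. On the high side B230208H11Rik had 20.2, 32.8 and 17.7 FPKM, Gm26869 3.13, 5.69 and 6.85 FPKM, Gm15706 1.16, 2.49 and 1.76 FPKM and Gm9898 0.845, 2.03 and 0.706 FPKM in the normal, 2Ws and 3Ws libraries. On the low side Gm11851 had 6.17, 2.71 and 3.22 FPKM, Gm11815 8.48, 5.04 and 6.78 FPKM and Gm26887 5.70, 3.64 and 3.32 FPKM. At 3Ws Gm26869 and Gm26887 lay farther from the normal level than at 2Ws, and the other 5 nearer to it.

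**Figure D4:**
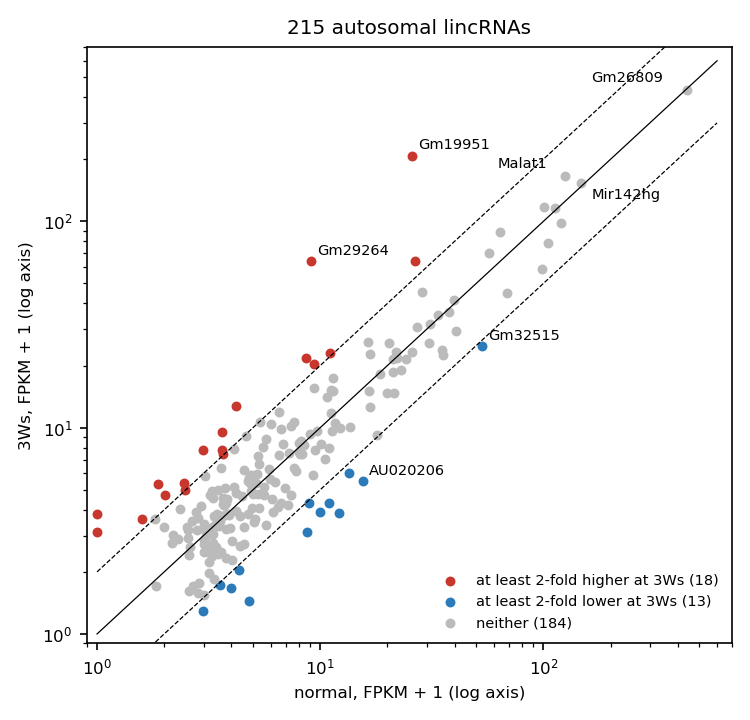
FPKM plus 1 at 3Ws against FPKM plus 1 in normal mice (both axes logarithmic) for the 215 lincRNAs, with 1 point for each gene, a solid line of equality and dashed lines at 2-fold. The 18 higher and 13 lower genes lie outside the dashed lines, with Gm19951 and Gm29264 farthest above, while Gm26809, Malat1 and Mir142hg lie near equality.

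Several lincRNAs have described functions. Gm14005, known as Morrbid and needed for the survival of short-lived myeloid cells in mice, had 5.56, 6.06 and 6.39 FPKM in the normal, 2Ws and 3Ws libraries. AW112010, an RNA of activated macrophages and lymphocytes, had 8.02, 7.46 and 8.29 FPKM. 2900097C17Rik, the counterpart of the genome stability RNA NORAD, had 29.7, 28.5 and 24.7 FPKM. Ptgs2os2, also called lincRNA-Cox2, had 5.16, 5.16 and 2.89 FPKM, with a log2 ratio of −0.66 at 3Ws against normal. Of the 17 measured RNAs on the list of immune lincRNAs, 0 passed the 2-fold rule upward and 1, Ifi203-ps, downward at 3Ws against normal (median log2 ratio 0.04), numbers too small to set apart from the 2.64% and 8.76% of all genes. Ifi203-ps is not among the 215, and 1 of the 17 lies on the X chromosome. Dubr had 9.67, 9.43 and 13.05 FPKM, Gdap10 7.48, 9.08 and 7.26 FPKM, Platr7 6.40, 5.48 and 3.73 FPKM, Fam120aos 2.85, 2.51 and 2.80 FPKM, Gpr141b 2.28, 1.99 and 3.92 FPKM, Smkr-ps 2.61, 3.13 and 5.36 FPKM and Tmem250-ps 4.70, 4.45 and 2.38 FPKM. None of these 7 passed the 2-fold rule.

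Hosts of small nucleolar RNAs, which guide the modification of ribosomal RNA, were lowest at 3Ws without passing the 2-fold rule on FPKM plus 1. At levels this low the added 1 shrinks the ratio, and the FPKM of the next 3 genes fell by more than 2-fold from normal to 3Ws. Snhg6 had 2.17, 2.85 and 0.971 FPKM, Snhg20 1.87, 2.04 and 0.757 FPKM and Epb41l4aos 2.01, 1.69 and 0.545 FPKM in the normal, 2Ws and 3Ws libraries. These are the 3 of the 215 on a list of such hosts, of which 11 were measured. Over those 11 the median log2 ratio was −0.45 at 3Ws against normal and 0 passed the 2-fold rule, where the median of all autosomal genes was −0.22. On the list of microRNA hosts 4 were measured, Mir142hg and Mir17hg among them, with a median of −0.12 and 0 past the rule, and the only imprinted noncoding RNA measured was at −0.38.

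The lincRNAs and their neighbors were also set side by side, since the transcription of some lincRNAs goes with that of a nearby gene. The gap to the nearest protein-coding gene was over 5 kb for 140 of the 215 and 0 for 27, with a median of 13172 bases, and 23 lay divergent to a protein-coding gene within 5 kb. At 3Ws against normal, 150 lincRNAs had a nearest protein-coding gene with at least 2 FPKM. Over these pairs the log2 ratios had a Spearman correlation of 0.48, a description across genes that share the same libraries. It was 0.25 over 149 pairs at 2Ws against normal and 0.43 over 145 pairs at 3Ws against 2Ws. No other gene pairs were set beside these, so what genes far apart would give is not known. Some neighbors occur in more than 1 pair, and pairs with overlapping exons, whose reads cannot be assigned, were kept. Of the 18 higher lincRNAs, 13 had a neighbor with at least 2 FPKM. Of these 13 neighbors 2 (of Gm42800 and Gm36723) passed the rule upward and 0 downward, with a median log2 ratio of 0.71. Of the 13 lower lincRNAs, 9 had such a neighbor, and 3 of these neighbors passed the rule downward and 0 upward, with a median of −0.91. Over all 150 neighbors 5 passed the rule upward and 7 downward, and over the 8931 genes 2.64% and 8.76% did. The counts among called lincRNAs are too small to set apart from these shares.

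**Figure D5:**
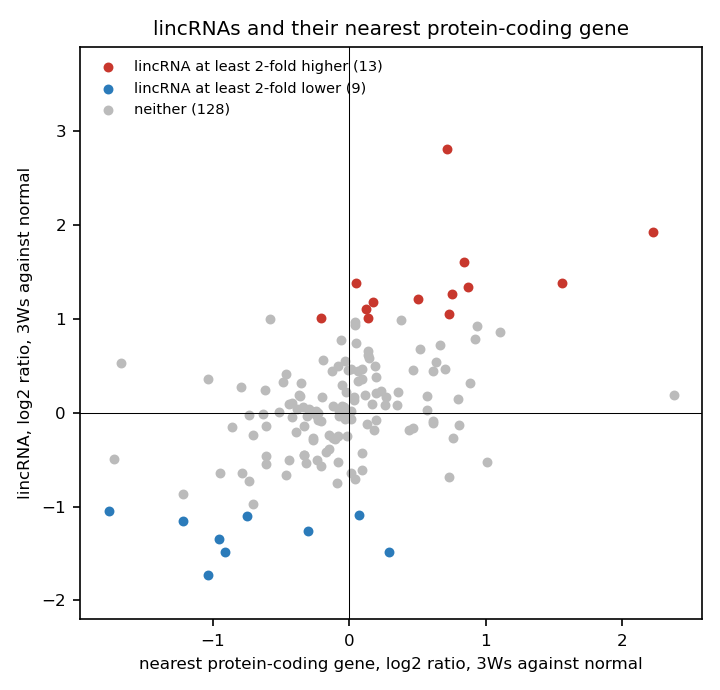
log2 ratio of FPKM plus 1 at 3Ws against normal of each lincRNA (vertical axis) and of its nearest protein-coding gene (horizontal axis), for 150 pairs whose neighbor had at least 2 FPKM. The neighbors of the 13 higher lincRNAs have a median of 0.71 and those of the 9 lower lincRNAs a median of −0.91.

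In structure the lincRNAs were short. Their summed exon length had a median of 1143 bases, from 78 to 20771, against 4407 bases for the protein-coding genes, and 16.7% had a single exon block, against 2.29%. Exons of 44 overlapped another gene, 34 of them on the opposite strand. The largest numbers on 1 chromosome were 26 on chromosome 10, 21 on chromosome 4 and 20 on chromosome 1. RefSeq also called 101 of them lncRNA, but 7 protein-coding, among them Gpr141b and Gm2511, and 1 a pseudogene, Gm47761, and 106 were not matched.

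RefSeq (GRCm38.p6) gave promoters, taken as 250 bases before to 50 after a start, for 89 of the 215, 109 promoters in all. Their median GC content was 49.0% and their median ratio of observed to chance CpG 0.32, against 61.0% and 0.77 for 7782 promoters of the protein-coding genes with the same level rule and 53.0% and 0.39 for all 31387 autosomal promoters. The letters TATAAA, on either strand, stood in 10.1% of the lincRNA promoters, 7.07% of those protein-coding promoters and 13.6% of all autosomal promoters. TTCNNNGAA, the core letters of STAT binding sites, stood in 4.59%, 6.71% and 8.35% of these sets, CCGGAAG, the core of ETS sites, in 11.9%, 19.8% and 9.01%, and GGGCGG, the core of SP1 sites, in 21.1%, 63.6% and 36.0%. For TATAAA and CCGGAAG the direction of the difference thus depended on the set compared. CCGGAAG can overlap GGGCGG on the other strand. A match is a description and not a site. The promoters of Gm19951, highest in log2 ratio of FPKM plus 1 at 3Ws against normal (chr12:99642846-99643145, plus strand), and of the most read of the lower ones, AU020206 (chr7:75782071-75782370, minus strand), are shown with any of these letters, on either strand, in capitals.
Gm19951: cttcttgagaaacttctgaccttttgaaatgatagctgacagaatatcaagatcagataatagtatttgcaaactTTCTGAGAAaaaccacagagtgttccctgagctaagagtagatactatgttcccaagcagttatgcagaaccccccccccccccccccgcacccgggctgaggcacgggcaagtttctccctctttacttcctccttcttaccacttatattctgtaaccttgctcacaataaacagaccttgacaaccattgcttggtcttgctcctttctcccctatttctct
AU020206: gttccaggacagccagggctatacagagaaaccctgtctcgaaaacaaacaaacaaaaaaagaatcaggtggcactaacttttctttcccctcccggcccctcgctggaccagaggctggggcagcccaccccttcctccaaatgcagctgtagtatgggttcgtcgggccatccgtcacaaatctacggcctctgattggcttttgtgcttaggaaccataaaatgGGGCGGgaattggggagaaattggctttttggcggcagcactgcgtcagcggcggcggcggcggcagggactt

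The promoter of Gm19951 held TTCNNNGAA and no GGGCGG, with a GC content of 45.3%, and that of AU020206 held GGGCGG and no TTCNNNGAA, with 55.7%. Among the promoters of the lincRNAs at least 2-fold higher at 3Ws than in normal mice, 10 promoters of 8 genes were given, and GGGCGG stood in 1. Among the lower ones it stood in 3 of 6 promoters. These numbers are too small to compare.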

How the data were processed

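The deposited values are FPKM, which the authors made by aligning RNA-seq reads (Illumina) to GRCm38 with HISAT2 2.1.0, with Bowtie2 2.2.3 also in the submitters' processing notes. Neither the annotation release nor strand handling is given in the sources used here. Of 26655 rows, 26588 matched GENCODE M21. FPKM times union exon length times a library total gave whole reads within 0.001 in all libraries for 87.9% of 23318 genes and 203 of the 215 lincRNAs. Over all genes these reads summed to 5.75% to 5.90% more than the total. No count model was fitted, since each condition has 1 library. Reads served for intervals (exact Clopper-Pearson, 95%) and floors (3 reads per library), and are estimates for the other 12 lincRNAs.

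Ratios are log2 of FPKM plus 1, and 2-fold or more was called. The background was every autosomal gene with at least 2 FPKM in 1 library. Genes were named by 4 rules: the 15 highest mean levels, per comparison the 8 genes at either end of the ratios (20 reads or more in 1 of its libraries), symbols other than clone names, and hosts of microRNA or snoRNA genes. Other genes are named because they passed the 2-fold rule, lie at the threshold or are on a list, and were chosen after their values were seen. Lists covered nuclear body, snoRNA host, microRNA host, immune and imprinted noncoding RNAs, paraspeckle and speckle genes, ribosomal RNA-like rows, interferon-stimulated genes and cell type markers; a list gene counted as measured at 1 FPKM or more in a library. Members and lists were chosen with earlier results of these data known. Alternatives were pseudocounts of 0.1 and 0.5, centring, scaling to Actb, other level and read minimums, intervals without 1, and leaving out genes with exon overlaps or small RNA genes. Calculations used Python 3.11.15 with scipy 1.17.1, numpy 2.4.6, matplotlib 3.10.9 and pandas 2.3.3. The recovery of totals, the 2-fold rule and the intervals were tested on simulated libraries with known changes.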

Additional observations from a re-analysis of the deposited data

How the results depend on the processing

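Of 87 values for counts and medians under alternatives, 66 stayed within 1.5 times the count or within the interval of the median, and 21 did not. At 2Ws against normal the counts are small: 7 higher and 4 lower with a pseudocount of 0.1, 2 lower with 0.5, 0 lower when centred or relative to Actb (Gm26917, just under the rule) or at a minimum of 5 FPKM, 3 lower with no minimum, and 1 higher among genes with at least 50 reads. Its median was 0.17 relative to Actb and 0.0046 with no minimum. At 3Ws against normal 22 were lower with a pseudocount of 0.1, 8 when centred and 8 with at least 50 reads, 11 were higher at a minimum of 5 FPKM, and the centred median was 0.19. In that comparison 26 were higher with a pseudocount of 0.1 and 25 when centred, within 1.5 times the count. At 3Ws against 2Ws 23 were lower with a pseudocount of 0.1, 18 with 0.5, 7 when centred and 5 at a minimum of 5 FPKM, 9 were higher at 5 FPKM, and the centred median was 0.0823. The cause was not tested beyond the shift of −0.18 given above and the fewer genes in the stricter sets. Of the 183 ratios of named genes, 14 changed sign when centred and 10 relative to Actb, none of them called. Calls of 7 were lost when centred and of 1 relative to Actb, while 5 and 3 were newly 2-fold there, as were 22 with a pseudocount of 0.1 and 11 with 0.5. No paired analysis was possible because each condition has 1 library. Of the 215 genes, 161 had at least 50 reads in a library and 12 had under 20 in all, and for these small differences were not detectable at this depth.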
